A study of Triticum aestivum with 24 samples.

Results

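The *RHT1* genes of bread wheat encode its DELLA protein. The hexaploid genome carries a copy in each of its A, B and D subgenomes, and such corresponding copies are called homoeologues. The members described here are *RHT-A1* (TraesCS4A02G271000, chromosome 4A), *RHT-B1* (TraesCS4B02G043100, chromosome 4B) and *RHT-D1* (TraesCS4D02G040400, chromosome 4D). They were chosen by identity, with earlier results of these data known, and are 3 of the 107891 gene models measured. All 3 passed the filter on low values, which kept 63241 genes.

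DELLA proteins are nuclear growth repressors of the GRAS family. Gibberellin (GA) bound to its receptor GID1 attaches to the DELLA domain, and an SCF ubiquitin ligase then marks the DELLA protein for degradation, which releases growth. The semi-dwarfing alleles *Rht-B1b* and *Rht-D1b* of the Green Revolution carry a premature stop codon within the region encoding the DELLA domain. Translation restarts after it and gives a shortened repressor that GA does not remove. IDD5 is a zinc-finger transcription factor of the INDETERMINATE DOMAIN family that binds DELLA proteins.

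RNA was taken from leaf sheaths of 7-d-old seedlings, 8 h after treatment with water or with 100 µM GA3, a bioactive gibberellin. The 3 genotypes were the tall cultivar Cadenza, the *idd5* mutant and *Rht-D1b*, giving 6 groups of 4 libraries. All 3 shared the Cadenza background. *Rht-D1b* was a near-isogenic line carrying that allele at *RHT-D1*. The *idd5* line combined induced mutations in the A, B and D copies of *IDD5*, with premature stops in *IDD5-A1* and *IDD5-D1* and a splice donor mutation in *IDD5-B1*, and had been backcrossed to Cadenza. Its wild-type sister line was not analysed here, so other induced mutations and the *idd5* genotype cannot be told apart. All values are TPM (a transcript level corrected for transcript length and scaled to the same total in each library). A TPM counts transcript of both functional and mutant alleles and does not measure protein. In whole leaf sheaths, fewer cells of a type and less RNA per cell cannot be told apart.

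The median correlation of a library with the others of its group, on log2 values, ran from 0.963 to 0.975 over the 24 libraries, and 56583 to 58700 genes reached 0.5 TPM in a library. Replicate 2 of GA-treated *idd5* was the extreme of the *idd5* libraries in an interval of the genome. Of 37 genes expressed in Cadenza between TraesCS2A02G267900 and TraesCS2A02G277100 on chromosome 2A, an interval chosen after its values were seen, 22 were listed at 0 TPM in this library, against at most 1 in any other. These genes were low in every *idd5* library. Their median level was 9.64 to 21.6% of that in water-treated Cadenza in the other *idd5* libraries and 0% in this one, against 87.5 to 103% in the Cadenza and *Rht-D1b* libraries. It also had the lowest level of each *RHT1* homoeologue in its group, so values without it are given below. Replicate 2 was likewise the lowest for *RHT-A1* in the Cadenza and *Rht-D1b* groups, in water and with GA3. The *idd5* labels were checked with *IDD5-B1*, which lay between 30.5 and 36.8 TPM in the 8 *idd5* libraries and between 7.86 and 10.8 TPM in the other 16. The tissue label could not be checked against marker genes, because no source used here pairs leaf sheath markers with these identifiers.

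In water-treated Cadenza the homoeologues were all strongly expressed, and *RHT-D1* was the lowest. *RHT-A1* had 89.0, 80.8, 83.8 and 82.7 TPM in replicates 1 to 4, a mean of 84.1 ± 3.51 (SD, n = 4). *RHT-B1* had 84.4, 78.3, 79.6 and 78.5 TPM, a mean of 80.2 ± 2.87 (SD, n = 4). *RHT-D1* had 70.6, 61.5, 63.7 and 66.9 TPM, a mean of 65.7 ± 3.95 (SD, n = 4). The *RHT-D1* libraries lay below all those of the other homoeologues, whereas the ranges of *RHT-A1* and *RHT-B1* overlapped. These levels exceeded those of 96.8%, 96.6% and 95.8% of the genes tested for *RHT-A1*, *RHT-B1* and *RHT-D1*. The spread within groups, as a coefficient of variation pooled over the 6 groups, was 7.23%, 7.42% and 7.08%, against a median of 8.45% over 3336 genes averaging 40 to 160 TPM. In single groups it ran from 1.61% for *RHT-D1* in water-treated *Rht-D1b* to 12.7% for *RHT-B1* in GA-treated *Rht-D1b*.

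**Figure D1:**
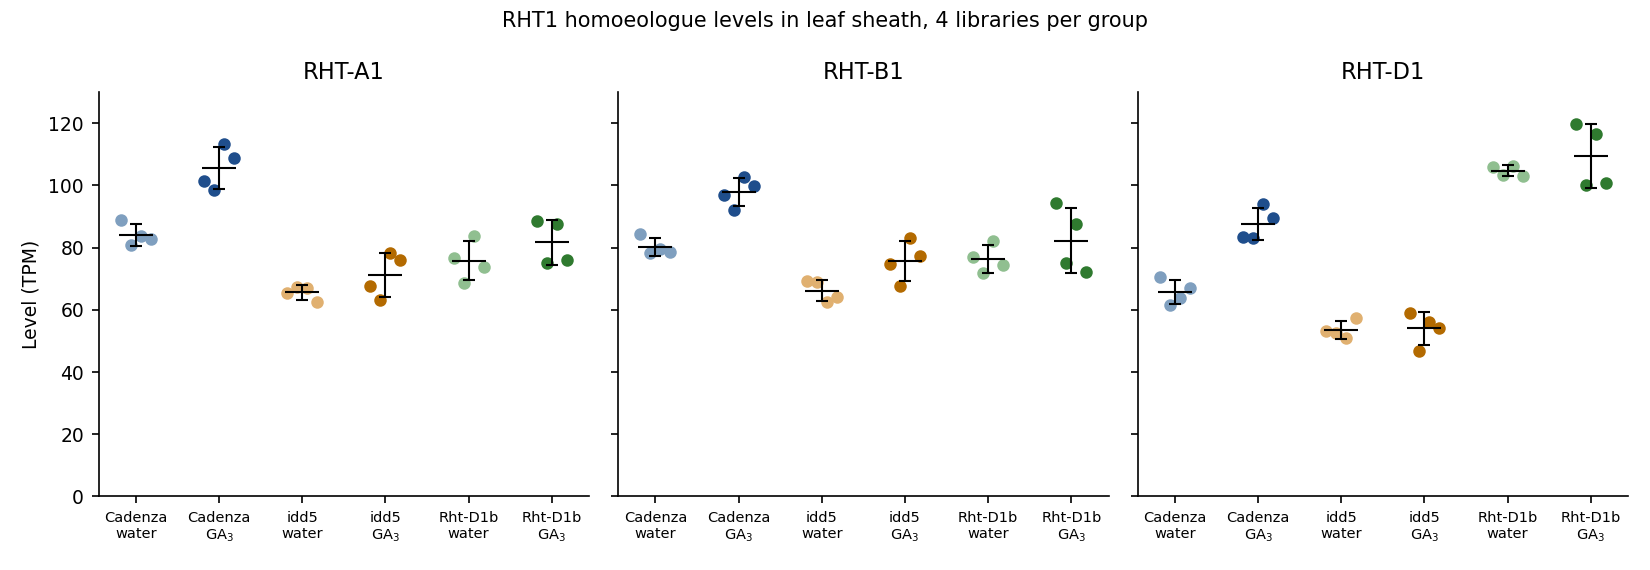
TPM of *RHT-A1*, *RHT-B1* and *RHT-D1* in each library (points), with group means (bars) and SD (n = 4), for Cadenza, *idd5* and *Rht-D1b* in water or GA3. *RHT-D1* is near 105 TPM in water-treated *Rht-D1b* against 65.7 in Cadenza, and every homoeologue has its lowest mean in *idd5*.

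The *idd5* mutant was compared with Cadenza to ask whether loss of a DELLA partner changed DELLA transcript levels. All *RHT1* homoeologues had lower means in *idd5* than in Cadenza, in water and with GA3. In water, *RHT-A1* had 65.3, 67.4, 67.2 and 62.4 TPM in the *idd5* replicates (65.6 ± 2.33, SD, n = 4). *RHT-B1* had 69.4, 68.8, 62.5 and 64.1 TPM (66.2 ± 3.44, SD, n = 4). *RHT-D1* had 53.2, 52.7, 50.8 and 57.5 TPM (53.5 ± 2.80, SD, n = 4). Each homoeologue was lower in every *idd5* library than in every water-treated Cadenza library, a pattern that 9.84% of the genes tested showed in this direction.

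On the log2(TPM + 0.5) scale, *RHT-A1* differed by -0.36 (95% interval -0.51 to -0.20), with a limma adjusted p of 0.00303 (Benjamini-Hochberg, over all genes tested). It passed the threshold of 0.01. *RHT-D1* differed by -0.29 (-0.44 to -0.14, limma adjusted p = 0.0112) and *RHT-B1* by -0.28 (-0.43 to -0.12, limma adjusted p = 0.0223). Neither passed. Thus 1 of 3 members was called lower, where 1.93% of the genes tested were, and 4.73% were called in either direction. The *RHT-A1* call was lost without Cadenza water replicate 1 (limma adjusted p = 0.0138), without *idd5* water replicate 4 (0.0129) and with median-ratio scaling of the libraries (0.0154), over a range of 0.000728 to 0.0154 in 17 alternatives.

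With GA3 the gap between *idd5* and Cadenza was wider in level for each homoeologue. *RHT-A1* had 67.7, 63.1, 78.1 and 75.9 TPM in GA-treated *idd5* (71.2 ± 7.01, SD, n = 4), against 101, 98.5, 113 and 109 TPM in Cadenza. *RHT-B1* had 74.9, 67.5, 83.2 and 77.2 TPM (75.7 ± 6.46, SD, n = 4), against 97.0, 92.1, 103 and 99.8 TPM. *RHT-D1* had 59.1, 46.8, 56.2 and 54.1 TPM (54.0 ± 5.24, SD, n = 4), against 83.6, 83.1, 94.2 and 89.5 TPM. No *idd5* library reached the lowest Cadenza library for any homoeologue, and 11.2% of the genes tested were lower without overlap.

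All 3 members were called lower in this comparison, where 4.84% of the genes tested were called lower and 9.41% in either direction. *RHT-D1* differed most, by -0.69 on the log2 scale (95% interval -0.84 to -0.54, limma adjusted p = 5.85e-07), or 38.2% less. *RHT-A1* differed by -0.57 (-0.72 to -0.41, limma adjusted p = 1.14e-05). *RHT-B1* differed by -0.37 (-0.53 to -0.21, limma adjusted p = 0.00129). Without GA-treated *idd5* replicate 2 the differences were -0.63, -0.51 and -0.32 for *RHT-D1*, *RHT-A1* and *RHT-B1*, and all were still called. The *RHT-B1* call was lost with median-ratio scaling (limma adjusted p = 0.0113) and when only the compared groups were fitted (0.0122), over a range of 0.000595 to 0.0122 in 17 alternatives.

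*Rht-D1b* was compared with Cadenza to see whether carrying the dwarfing allele went with altered expression of the gene itself or of the other homoeologues. In water, *RHT-D1* was raised and *RHT-A1* and *RHT-B1* were not called. *RHT-D1* had 106, 103, 106 and 103 TPM in *Rht-D1b* (104.7 ± 1.69, SD, n = 4), well above the highest Cadenza library at 70.6 TPM. Its group mean was 1.59-fold that of Cadenza on the fitted scale, a log2 difference of 0.67 (95% interval 0.52 to 0.82, limma adjusted p = 2.35e-06). It was the single member called higher, where 1.69% of the genes tested were called higher and 3.92% in either direction. A higher level in every library was shown by 5.13% of the genes tested. The call held in all 17 alternatives (highest limma adjusted p = 0.000263). By adjusted p, 130 genes ranked ahead of it, and 2.0% of the genes tested had a higher log2 difference.

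The other homoeologues were not called. *RHT-A1* had 76.7, 68.7, 83.8 and 73.9 TPM in water-treated *Rht-D1b* (75.8 ± 6.30, SD, n = 4), a log2 difference from Cadenza of -0.15 (95% interval -0.31 to 0.00, limma adjusted p = 0.238). *RHT-B1* had 76.8, 71.8, 82.2 and 74.5 TPM (76.3 ± 4.41, SD, n = 4), a difference of -0.07 (-0.23 to 0.09, limma adjusted p = 0.644), or 0.00 with median-ratio scaling. Both ranges overlapped those of Cadenza. In TPM, the mean of *RHT-D1* was 39.0 higher, while those of *RHT-A1* and *RHT-B1* differed by -8.28 and -3.86.

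With GA3, *RHT-D1* remained higher in *Rht-D1b* and *RHT-A1* was lower. *RHT-D1* had 119.8, 100.1, 116 and 101 TPM (109 ± 10.3, SD, n = 4), a log2 difference of 0.31 from GA-treated Cadenza (95% interval 0.17 to 0.47, limma adjusted p = 0.00421). *RHT-A1* had 88.4, 75.0, 87.5 and 76.1 TPM (81.8 ± 7.20, SD, n = 4), a difference of -0.37 (-0.52 to -0.21, limma adjusted p = 0.00149). Neither of them overlapped Cadenza. *RHT-B1* had 94.2, 75.1, 87.7 and 72.1 TPM (82.3 ± 10.4, SD, n = 4), which overlapped Cadenza, and its difference of -0.26 (-0.41 to -0.10, limma adjusted p = 0.0243) did not pass.

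In this comparison 1 member was called higher, against 3.24% of the genes tested, and 1 lower, against 4.78%, with 8.02% called in all. A higher level without overlap was shown by 6.38% of the genes and a lower one by 10.3%. In GA-treated *Rht-D1b*, replicates 1 and 3 were higher than replicates 2 and 4 for every homoeologue. The *RHT-D1* call was lost without GA-treated Cadenza replicate 1 (limma adjusted p = 0.0155) or 2 (0.0185) and without GA-treated *Rht-D1b* replicate 1 (0.0195) or 3 (0.0184), over a range of 0.00174 to 0.0399 in 17 alternatives. *RHT-B1* was called without GA-treated *Rht-D1b* replicate 1 (-0.32, limma adjusted p = 0.00492, range 0.00492 to 0.114). The *RHT-A1* call was lost when only the compared groups were fitted (0.0204, range 0.000358 to 0.0204).

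The *idd5* and *Rht-D1b* lines were also set against each other. *RHT-D1* in *idd5* was close to 0.5 of its level in *Rht-D1b*. The log2 difference was -0.96 in water (95% interval -1.11 to -0.81, limma adjusted p = 1.34e-08) and -1.01 with GA3 (-1.16 to -0.86, limma adjusted p = 4.26e-09). *RHT-D1* was the 1 of 3 members called in each, where 0.25% of the genes tested were called lower in water and 0.381% with GA3, and 0.455% and 0.727% in either direction. In water all 3 members were lower in *idd5* without overlap, which 2.96% of the genes tested were. With GA3 this held for *RHT-D1* alone, against 3.28%. For *RHT-A1* the log2 differences were -0.20 in water and -0.20 with GA3, and for *RHT-B1* they were -0.20 and -0.12, with limma adjusted p from 0.206 to 0.541.

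**Figure D2:**
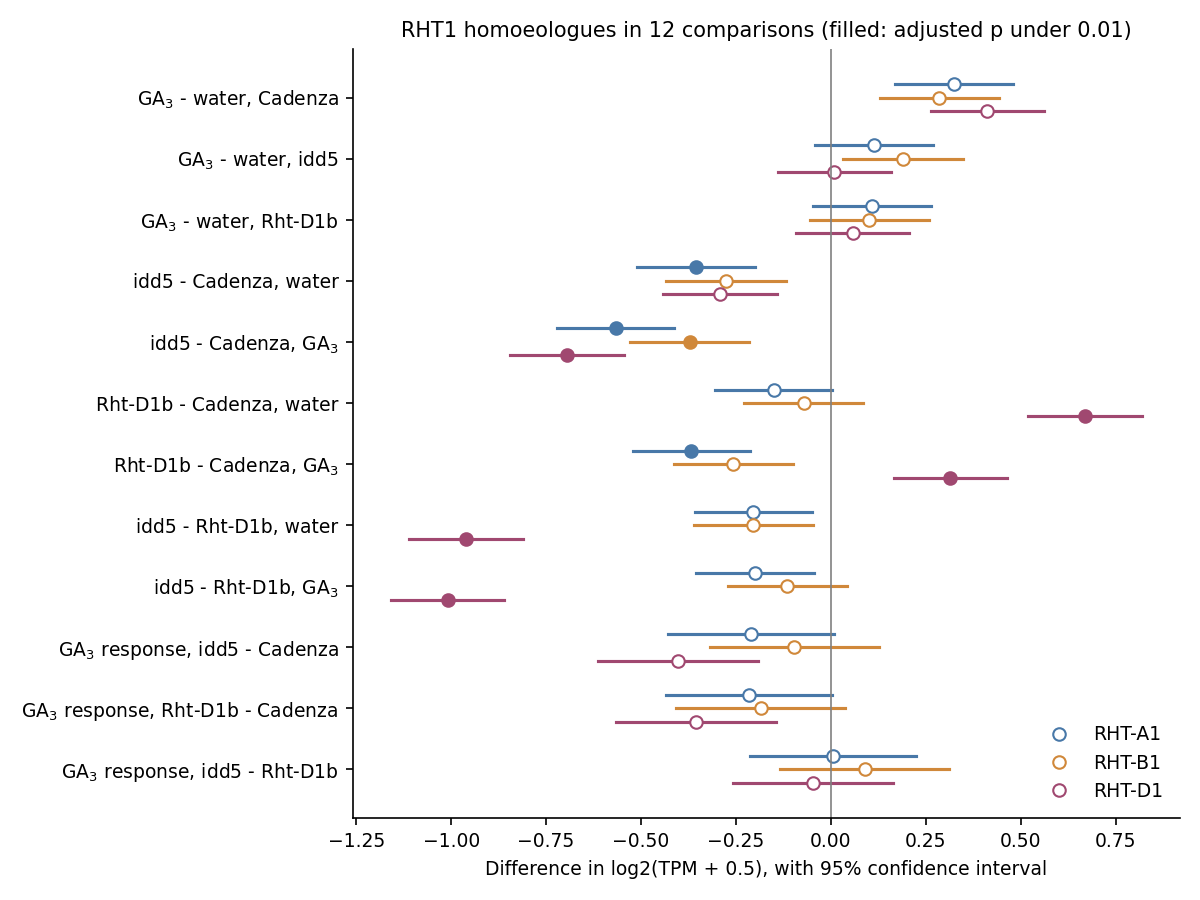
Log2 difference of each *RHT1* homoeologue in the 9 pairwise comparisons and the 3 differences of GA responses, as points with 95% intervals from limma's fit. Filled points passed an adjusted p of 0.01. The *RHT-D1* points for *Rht-D1b* against Cadenza (0.67 in water, 0.31 with GA3) lie to the right of 0. Those of *RHT-A1* and *RHT-B1* lie to the left, but *RHT-B1* in water moves to 0.00 with median-ratio scaling.

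GA3 was compared with water within each genotype to ask whether GA changed the level of DELLA transcript. In Cadenza every homoeologue was higher with GA3 than with water in all libraries, a pattern that 2.26% of the genes tested showed. *RHT-D1* went from a mean of 65.7 to 87.6 ± 5.28 TPM (SD, n = 4). *RHT-A1* went from 84.1 to 105.5 ± 6.74 TPM (SD, n = 4) and *RHT-B1* from 80.2 to 97.9 ± 4.48 TPM (SD, n = 4). Taken singly, each difference had p = 0.0286 in an exact two-sided permutation test, the smallest that 4 libraries against 4 allow.

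Across all genes, none of the 3 members passed the threshold, and 0.0522% of the genes tested were called higher (0.0965% in either direction). *RHT-D1* lay at the threshold, with a log2 difference of 0.41 (95% interval 0.26 to 0.56, limma adjusted p = 0.010007, just above 0.01), and exactly 61 genes had a smaller adjusted p. *RHT-A1* differed by 0.32 (0.17 to 0.48, limma adjusted p = 0.0621) and *RHT-B1* by 0.29 (0.13 to 0.44, limma adjusted p = 0.128). The *RHT-D1* value passed with a pseudocount of 0.1 (limma adjusted p = 0.00974), a filter at 2 TPM (0.00868) and median-ratio scaling (0.00603). Its range over 17 alternatives was 0.00574 to 0.062.

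In the mutants the GA3 and water libraries overlapped for each homoeologue. Of the genes tested, 1.09% in *idd5* and 1.03% in *Rht-D1b* were higher with GA3 without overlap. No gene of the 63241 was called in either mutant, where 4216 genes (6.67%) in *idd5* and 3705 (5.86%) in *Rht-D1b* had an unadjusted limma p under 0.05. In *idd5*, *RHT-D1* differed by 0.01 on the log2 scale (95% interval -0.14 to 0.16), *RHT-A1* by 0.11 (-0.04 to 0.27) and *RHT-B1* by 0.19 (0.03 to 0.35). Without GA-treated *idd5* replicate 2 these were 0.08, 0.17 and 0.24. The lowest GA3 values were then 67.67 TPM for *RHT-A1* and 74.9 TPM for *RHT-B1*, above the highest in water (67.44 and 69.4 TPM). *RHT-D1* still overlapped. How many of all genes tested lost their overlap without this library was not computed. In *Rht-D1b*, the values were 0.06 for *RHT-D1* (-0.09 to 0.21), 0.11 for *RHT-A1* (-0.05 to 0.26) and 0.10 for *RHT-B1* (-0.06 to 0.26). The limma adjusted p of these 6 values ran from 0.664 to 0.995. In *idd5* the *RHT-D1* value changed sign when single libraries were left out, from -0.04 to 0.08.

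The difference between the GA responses was then tested directly. Relative to Cadenza, the response of *RHT-D1* differed by -0.40 on the log2 scale in *idd5* (95% interval -0.61 to -0.19, unadjusted p = 0.000693, limma adjusted p = 0.372). In *Rht-D1b* it differed by -0.36 (-0.57 to -0.14, unadjusted p = 0.00213, limma adjusted p = 0.568). These intervals lie below 0, but neither value passed over all genes. For *RHT-A1* the differences were -0.21 (-0.43 to 0.01) in *idd5* and -0.22 (-0.43 to 0.00) in *Rht-D1b*, and for *RHT-B1* they were -0.10 (-0.32 to 0.13) and -0.18 (-0.41 to 0.04). Between the mutants the responses differed by 0.01, 0.09 and -0.05 for *RHT-A1*, *RHT-B1* and *RHT-D1*, with intervals reaching from -0.26 to 0.31. The share of genes called was 0% in each of these 3 contrasts, and 5.68%, 5.98% and 4.8% had an unadjusted p under 0.05. Both comparisons with Cadenza use the same Cadenza libraries. In simulated data, a planted log2 difference of 0.5 between the *idd5* and Cadenza responses was called in 2% of the genes given it. Those genes were drawn at random from genes averaging at least 5 TPM, so this rate was not measured for the *RHT1* genes.

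The summed TPM of the homoeologues measures total DELLA transcript. In water it was 244.0, 220.6, 227 and 228 TPM in Cadenza (229.9 ± 9.95, SD, n = 4), 188, 189, 180.5 and 184 TPM in *idd5* (185 ± 3.88, SD, n = 4) and 259.5, 244, 272 and 251 TPM in *Rht-D1b* (257 ± 12.2, SD, n = 4). With GA3 it was 282, 274, 310.0 and 298 TPM in Cadenza (291 ± 16.3, SD, n = 4). GA-treated *idd5* had 202, 177.5, 217 and 207 TPM (201 ± 17.0, SD, n = 4). GA-treated *Rht-D1b* had 302, 250.2, 292 and 249 TPM (273 ± 27.8, SD, n = 4). Total DELLA transcript was thus lowest in *idd5* and, among the 6 groups, highest on average in GA-treated Cadenza.

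The sum in *idd5* differed from that in Cadenza by -19.4% in water and -30.9% with GA3, with no overlap in either. *Rht-D1b* differed from Cadenza by 11.7% in water (26.8 TPM) and by -6.06% with GA3, and the libraries overlapped in both. With median-ratio scaling the difference in water was 38.5 TPM, and the libraries no longer overlapped. GA3 went with a sum 26.5% higher in Cadenza (61.0 TPM), without overlap. In *idd5* it was 8.44% higher (15.6 TPM) and in *Rht-D1b* 6.43% higher (16.5 TPM), both with overlap. Without GA replicate 2 the *idd5* difference was 23.5 TPM, and the lowest GA3 sum (201.6 TPM) lay above the highest in water (188.9 TPM). No test was run on the sum, because it is taken over the chosen members.

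**Figure D3:**
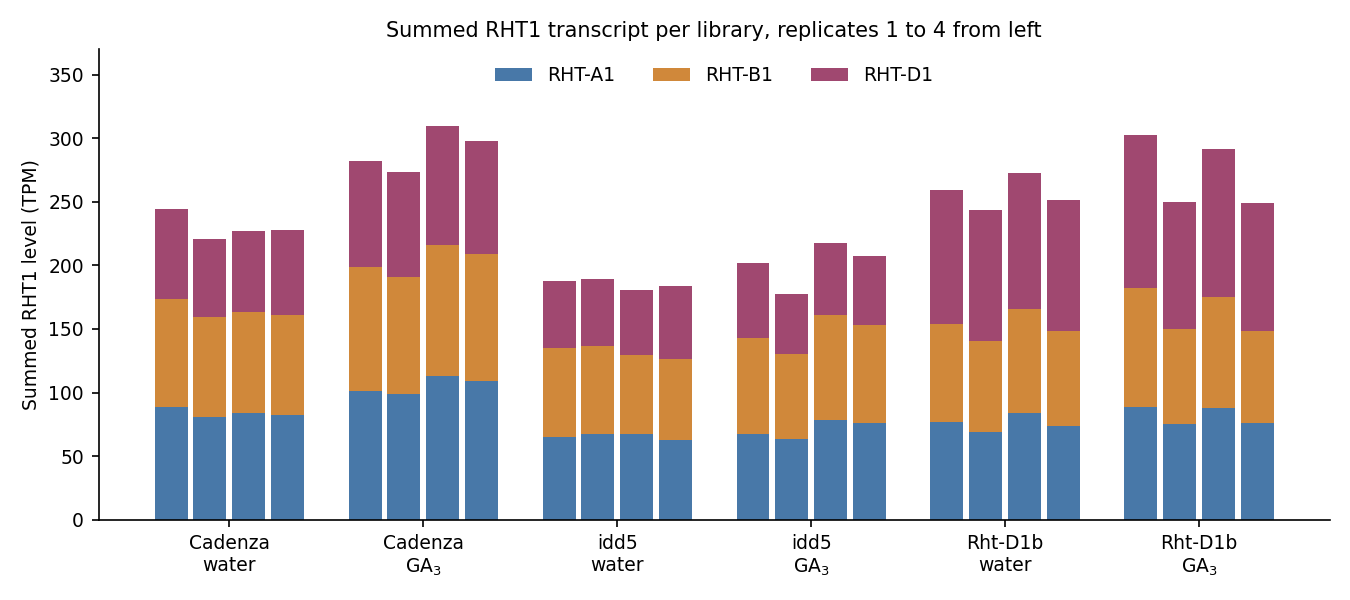
Summed TPM of *RHT-A1*, *RHT-B1* and *RHT-D1*, as a stacked bar for each library, with the replicates of each group in order from left to right. The sum averages 185 TPM in water-treated *idd5*, 229.9 in Cadenza and 257 in *Rht-D1b*, and the *RHT-D1* section is tallest in *Rht-D1b*.

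The share of each homoeologue in the sum is free of any scaling of the library. The *RHT-D1* share was 28.9, 27.9, 28.1 and 29.3% in water-treated Cadenza and 40.8, 42.4, 39.0 and 41.0% in water-treated *Rht-D1b*. With GA3 it was 29.6, 30.3, 30.4 and 30.0% in Cadenza and 39.6, 40, 39.9 and 40.4% in *Rht-D1b*. *RHT-D1* thus moved from the smallest part of the DELLA transcript to the largest. The difference in mean share was 12.3 percentage points in water and 9.91 with GA3, each with p = 0.0286 in an exact two-sided permutation test (0.0483 after adjustment over 27 comparisons of shares). The *RHT-A1* share differed by -7.09 points in water and -6.29 with GA3, and the *RHT-B1* share by -5.17 and -3.61. The shares of a library sum to 100%, so these are not independent of the *RHT-D1* share, and in water neither gene was called in TPM. In total, 16 of the 27 comparisons of shares, which are not independent of each other for the same reason, reached the p above. Their adjusted value of 0.0483, here and below, rests on that number, and most of these comparisons set *Rht-D1b* against another genotype. TPM of near-identical homoeologues depends on how the authors' quantifier divided shared reads, and this division was not tested.

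In *idd5* the *RHT-D1* share in water was 28.3, 27.9, 28.2 and 31.2%, a mean difference of 0.353 percentage points from Cadenza (p = 0.8, exact two-sided permutation test). With GA3 it was 29.3, 26.4, 25.8 and 26.1%, a difference of -3.19 points from Cadenza without overlap (p = 0.0286, exact two-sided permutation test, adjusted 0.0483). The *RHT-B1* share was 37.7 ± 0.565% (SD, n = 4) in GA-treated *idd5* against 33.7 ± 0.546% (SD, n = 4) in GA-treated Cadenza, 4.01 points higher (p = 0.0286, exact two-sided permutation test, adjusted 0.0483).

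Differences in share between GA3 and water were at most 2.0 percentage points in size. In Cadenza the *RHT-D1* share was 1.54 points higher with GA3 (p = 0.0286, exact two-sided permutation test, adjusted 0.0483) and that of *RHT-B1* differed by -1.22 points (p = 0.0571, exact). In *idd5* the *RHT-B1* share was 1.97 points higher (p = 0.0286, exact, adjusted 0.0483). The *RHT-D1* share there differed by -2.0 points (p = 0.114, exact), with overlap. In *Rht-D1b* the *RHT-D1* share differed by -0.809 points (p = 0.343, exact).

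**Figure D4:**
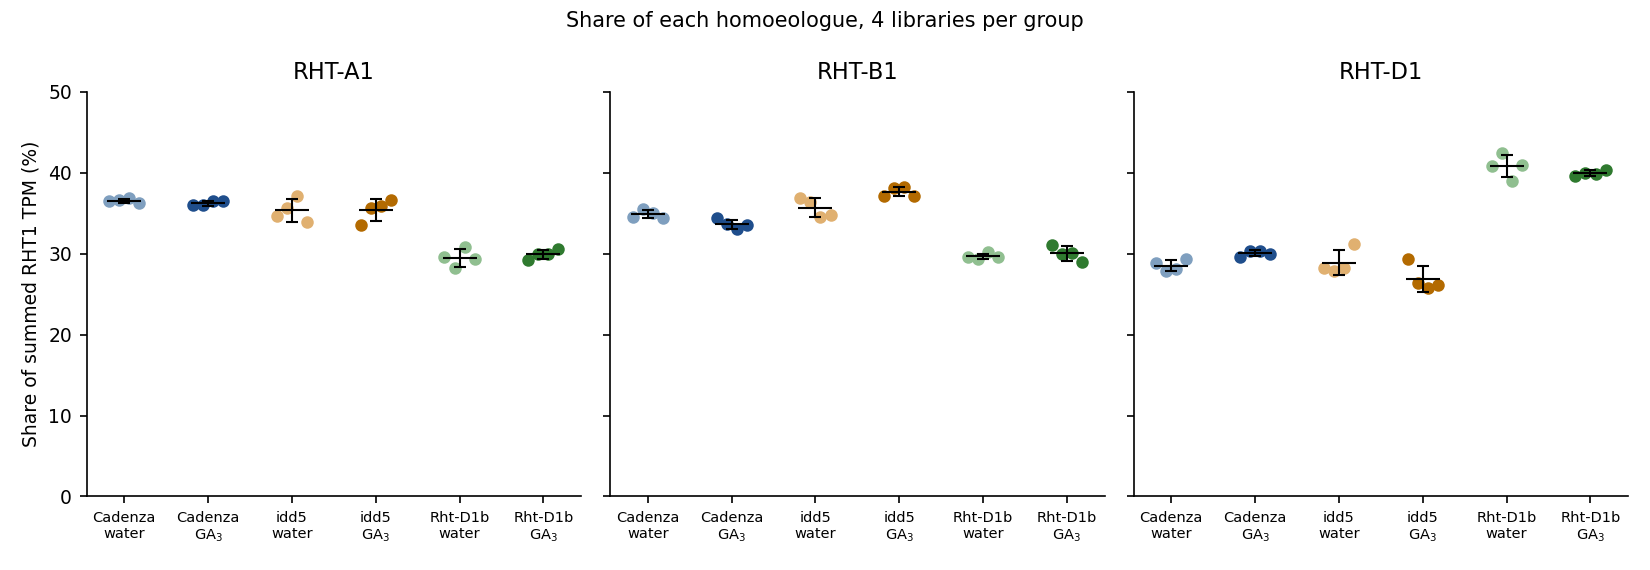
Share (percent) of each *RHT1* homoeologue in the summed *RHT1* TPM, per library (points) with group means. *RHT-D1* takes 26.9 to 30.1% on average in Cadenza and *idd5* and 40 to 40.8% in *Rht-D1b*.

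Among the homoeologues of a library, the place of *RHT-D1* followed the genotype. *RHT-D1* was the lowest of them in all 16 Cadenza and *idd5* libraries and the highest in all 8 *Rht-D1b* libraries. *RHT-A1* exceeded *RHT-B1* in 8 of 8 Cadenza libraries, in 1 of 8 *idd5* libraries and in 2 of 8 *Rht-D1b* libraries, but their levels were close. The ratio of *RHT-A1* to *RHT-B1* averaged 1.05 in water-treated Cadenza and 1.08 with GA3. It averaged 0.992 and 0.940 in *idd5*, and 0.992 and 0.998 in *Rht-D1b*. This ratio overlapped Cadenza for *idd5* in water and *Rht-D1b* with GA3, but not for *idd5* with GA3 or *Rht-D1b* in water. The level of *RHT-D1* relative to the mean of the other homoeologues averaged 0.799 in water-treated Cadenza and 0.861 with GA3, 0.814 and 0.737 in *idd5*, and 1.38 and 1.33 in *Rht-D1b*.

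**Figure D5:**
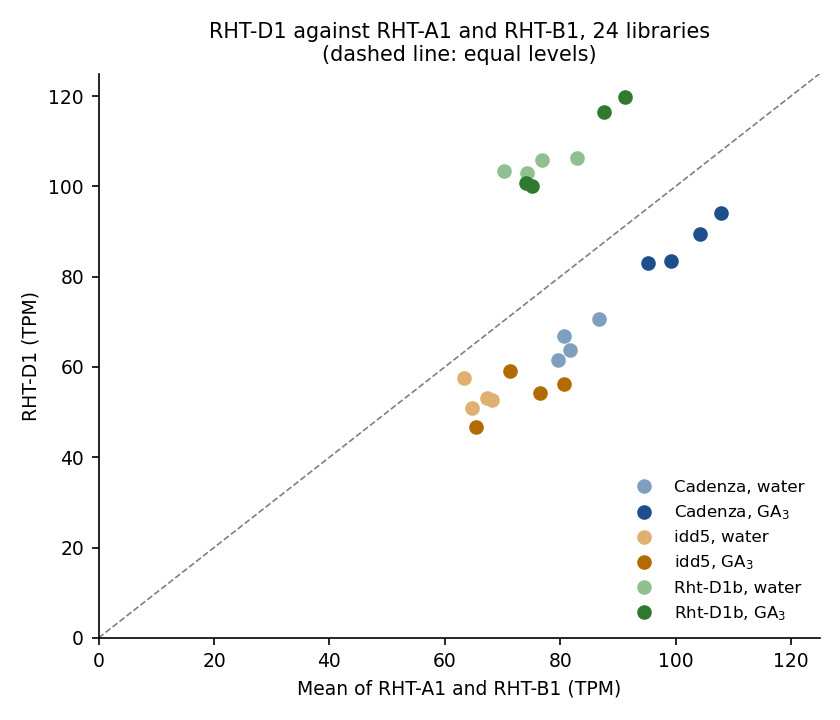
TPM of *RHT-D1* against the mean TPM of *RHT-A1* and *RHT-B1*, a point per library. The *Rht-D1b* libraries lie above the line of equal level, at ratios averaging 1.38 and 1.33, and all Cadenza and *idd5* libraries lie below it.

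Ordered by mean across the 6 groups, *RHT-D1* ran from *idd5* in water (53.5 TPM) and with GA3 (54.0) through Cadenza in water (65.7) and with GA3 (87.6) to *Rht-D1b* in water (104.7) and with GA3 (109). The ranges of neighbours in this order overlapped only within *idd5* and within *Rht-D1b*. For *RHT-A1* the order was *idd5* in water (65.6) and with GA3 (71.2), *Rht-D1b* in water (75.8) and with GA3 (81.8), then Cadenza in water (84.1) and with GA3 (105.5). Only the last step was free of overlap. For *RHT-B1* it was *idd5* in water (66.2) and with GA3 (75.7), *Rht-D1b* in water (76.3), Cadenza in water (80.2), *Rht-D1b* with GA3 (82.3) and Cadenza with GA3 (97.9). Here all neighbours overlapped.

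Across the 24 libraries *RHT-A1* and *RHT-B1* varied together, and *RHT-D1* followed them less closely. Pearson's r of log2(TPM + 0.5) was 0.95 between *RHT-A1* and *RHT-B1*, and *RHT-B1* was the second of 28617 genes in the order of likeness to *RHT-A1*. *RHT-D1* had r = 0.50 with *RHT-A1* and 0.52 with *RHT-B1*. The 24 points share genotypes and treatments, so these values are descriptions. After the group means were removed, r was 0.87 between *RHT-A1* and *RHT-B1*, with no gene more alike, 0.75 between *RHT-B1* and *RHT-D1*, and 0.63 between *RHT-A1* and *RHT-D1*. The other gene most like each member was TraesCS7B02G061600 for *RHT-A1* (r = 0.956, from 24.3 TPM in water-treated *idd5* to 42.8 TPM in GA-treated Cadenza). It was TraesCS4B02G297500 for *RHT-B1* (r = 0.929, from 132 to 170.2 TPM in the same groups). For *RHT-D1* it was TraesCS6A02G218800 (r = 0.898, from 49.4 TPM in GA-treated *idd5* to 64.6 TPM in GA-treated *Rht-D1b*). The table does not pair these identifiers with names.

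The genes beside *RHT-D1* were examined because a near-isogenic line can carry donor chromosome around the selected allele. Among the 20 nearest tested genes by identifier, TraesCS4D02G039100 to TraesCS4D02G041700, the median log2 difference between *Rht-D1b* and Cadenza in water was -0.0452, against -0.065 over all genes tested. Of these neighbours, 2 were called higher, where 1.69% of all genes tested were, and 2 lower, where 2.23% were, and 1 differed by at least as much as *RHT-D1* in either direction. With GA3, 2 were called higher, against 3.24% of all genes tested, and 1 lower, against 4.78%, and 6 differed by at least as much as *RHT-D1*. Between *idd5* and Cadenza, 2 of the same neighbours were called higher in water (2.81% of all genes tested) and 1 lower (1.93%). With GA3, 3 of them were called higher there (4.57%) and 4 lower (4.84%). Of the 20 nearest genes beside *RHT-B1*, 2 were called higher and 2 lower between *Rht-D1b* and Cadenza in water. Beside *RHT-A1*, 0 of 20 were called in that comparison. Whether donor chromosome surrounds *RHT-D1* in the *Rht-D1b* line was not tested.

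The *IDD5* homoeologues, the DELLA partners that the study pairs with identifiers, were expressed well below *RHT1*. Their summed TPM in water-treated Cadenza was 30.1, against 229.9 for *RHT1*. Of the 3, only *IDD5-B1* (TraesCS2B02G218900) was called in any contrast. It was higher in *idd5*, at 35.9 ± 0.772 TPM (SD, n = 4) in water against 9.43 ± 0.927 TPM (SD, n = 4) in Cadenza, a log2 difference of 1.88 (95% interval 1.73 to 2.03, limma adjusted p = 3.59e-13). Its transcripts include those with a retained intron, which TPM does not separate. No *IDD5* homoeologue was called between *Rht-D1b* and Cadenza or between GA3 and water. Over the 24 libraries r was -0.84 between *RHT-D1* and *IDD5-B1*, and 0.08 after the group means were removed.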

How the data were processed

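The authors trimmed paired-end reads with Trimmomatic 0.39, quantified them with Kallisto (version not given in the sources used here) and deposited one table of TPM, with a column for each of the 24 libraries. Gene identifiers were kept as deposited, because the methods and the series text give 2 annotation releases. TPM keeps no read depth, the depth is unknown, and precision rests on 4 replicates a group. The authors ran their own contrasts with DESeq2 on counts not used here.

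From the deposited TPM, log2(TPM + 0.5) was tested with limma 3.58.1 in R 4.3.3, with a mean for each of the 6 groups and a trend of variance on mean. The filter required 0.5 TPM or more in 4 or more libraries and kept 63241 genes, over which p-values were adjusted (Benjamini-Hochberg) and called under 0.01. There were 12 contrasts, 9 pairwise and 3 of responses. The steps were tested on simulated data, with a log2 change planted in 200 genes in GA-treated Cadenza. A planted change of 0.5 was called in 36.5% of them for GA3 in Cadenza. For the difference between the *idd5* and Cadenza responses it was called in 2%. A planted change of 1 was called in 89% and 67.5%. The fold changes of low genes are understated by the pseudocount. Shares were tested with exact two-sided permutation tests in scipy 1.17.1. The study's methods call the replicates biological without saying how plants were pooled, so p-values measure the spread between these samples.

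The genes named were the *RHT1* members, the *IDD5* homoeologues and, for each member, the gene with the highest correlation over the 24 libraries among tested genes averaging at least 5 TPM. The 10 nearest tested genes on each side were given by counts. The chromosome 2A interval was added after its values were known. The members and lists were chosen with earlier results of these data known. Alternatives covered the pseudocount, filter, scaling, trend, threshold, groups fitted, replicate block and each library left out. None of the 155467 RefSeq genes (assembly IWGSC CS RefSeq v2.1) matched the table's identifiers, so no sequence is shown.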

Additional observations from a re-analysis of the deposited data

Results flagged for a closer look

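The share of *RHT-D1* in the summed *RHT1* TPM had a single high library in both *idd5* groups. In water-treated *idd5*, replicate 4 had 31.2%, and the others lay between 27.9 and 28.3%. In GA-treated *idd5*, replicate 1 had 29.3%, and the others lay between 25.8 and 26.4%. The gap to the nearest library was 0.87 and 0.845 of the group's range, which exceeds the 95% critical value of Dixon's test for 4 samples. Of 42 groups of 4 values examined, these were the 2 that did so, and chance flags about 1 in 20. With both libraries left out, an alternative added after seeing the data, the *RHT-D1* share in *idd5* differed between GA3 and water by -2.02 percentage points, without overlap, against -2.0 points with overlap when all were used. Without them the difference from Cadenza was -0.427 points in water, against 0.353 with them, and -3.99 points with GA3, against -3.19.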

How the results depend on the processing

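Adjusted p are from limma's test. *RHT-D1* with GA3 in Cadenza (0.41, adjusted p = 0.010007) passed with a pseudocount of 0.1 (0.41), a 2 TPM filter (0.41), a 0.05 threshold (0.41), median-ratio scaling (0.45) and a replicate block (0.41, adjusted p = 0.00574). *RHT-D1* between *idd5* and Cadenza in water (-0.29) passed with the 2 TPM filter (adjusted p = 0.00916), the 0.05 threshold and the replicate block (0.00559), and *RHT-B1* there (-0.28) and between *Rht-D1b* and Cadenza with GA3 (-0.26) passed at 0.05. Median-ratio scaling ended the calls of *RHT-A1* between *idd5* and Cadenza in water (-0.29) and of *RHT-B1* with GA3 (-0.31). In water it also took *RHT-D1* between *idd5* and Cadenza to -0.23 (adjusted p = 0.0606) and *RHT-B1* to -0.21 (adjusted p = 0.12). No member was then called in that comparison. The same scaling took *RHT-B1* between *Rht-D1b* and Cadenza in water to 0.00. It moved the summed difference from Cadenza in water to -34.9 TPM for *idd5* and 38.5 TPM for *Rht-D1b*. Fitting only the compared groups ended the calls of *RHT-B1* between *idd5* and Cadenza with GA3 (-0.37) and of *RHT-A1* (-0.37) and *RHT-D1* (0.31) between *Rht-D1b* and Cadenza with GA3, and no trend ended the latter (0.31, adjusted p = 0.0113). As a log2 ratio to the other homoeologues, *RHT-B1* in Cadenza differed by -0.083 with GA3 (exact permutation p = 0.0286). With single libraries left out, *RHT-A1* between *idd5* and Cadenza in water ran from -0.375 to -0.328. Between *Rht-D1b* and Cadenza with GA3, *RHT-D1* ran from 0.269 to 0.355 and *RHT-B1* from -0.324 to -0.196. With GA3 in *idd5*, *RHT-D1* ran from -0.035 to 0.076, and the response difference between *idd5* and *Rht-D1b* from -0.044 to 0.061 for *RHT-A1* and from -0.092 to 0.019 for *RHT-D1*. The causes were not tested.

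Over all genes, same-numbered libraries of different groups were not alike. Correlations of same-numbered libraries ran from -0.162 to 0.147, and the replicate block changed no call other than those above. The number of genes called moved more than 1.5-fold in some alternatives. It went from 61 to between 0 and 209 for GA3 in Cadenza, and from 0 to up to 3 for GA3 in *idd5*. For *idd5* against Cadenza the counts were 2993 (1916 to 5942) in water and 5949 (2871 to 10227) with GA3. For *Rht-D1b* against Cadenza the counts were 2478 (1308 to 5522) and 5073 (2020 to 9108), and for *idd5* against *Rht-D1b* 288 (141 to 590) and 460 (131 to 1212). Depth is unknown in TPM, so its limit on these differences could not be given.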
